A study of Mus musculus with 2 samples.

Results

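Guanylate-binding proteins (GBPs) and immunity-related GTPases (IRGs) are families of GTP-hydrolysing proteins that mouse cells make in response to interferon. The 10 genes described here were 6 GBPs, Gbp2, Gbp3, Gbp4, Gbp5, Gbp6 and Gbp7, and 4 IRGs, Iigp1, Irgm1, Irgm2 and Igtp. They were taken by symbol from the feature table, where each of the 10 was found among 32285 genes. Their RNA was read in single cells of tumours that C57BL/6 mice carried after receiving cells of MC38, a line from a mouse colon carcinoma. The RSPO3-OE library came from MC38 cells that overexpress RSPO3, a secreted protein that strengthens Wnt signalling, and the Ctrl library came from MC38 control cells. How many mice stand behind a library, whether the line was a clone, and where and for how long the tumours grew were not stated in the sources used.

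With 1 library in each group, differences have no replicate check and none was tested. Intervals are 95% intervals that cover counting error only, and cells are not replicates. The library sizes were 7314 and 7301 barcodes with 155615189 and 143881763 UMIs (unique molecular identifiers, the counted RNA molecules), for RSPO3-OE and Ctrl in that order, and 6993 and 6895 cells were kept. The 2 libraries shared 7 barcodes. The labelled gene was read in its library: RSPO3-OE tumour cells held 12392 Rspo3 UMIs, or 107 CPM (UMIs of the gene per 1000000 UMIs of the class), and Ctrl tumour cells held 0.

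3 cell classes were defined by UMIs of a few genes, in both libraries. Tumour cells had no UMI of Ptprc, the pan-leukocyte gene, and at least 1 of Hmga2, which MC38 cells express. They numbered 4229 in RSPO3-OE and 4323 in Ctrl. Macrophages had at least 20 UMIs of the complement genes C1qa, C1qb and C1qc together, and numbered 1214 and 1176. T cells had at least 2 UMIs of Cd3d, Cd3e and Cd3g together, and numbered 416 and 208. Macrophage, T cell and Y-linked markers outside the rules were mostly in place, and monocyte markers were not. The summed level of 7 macrophage markers was 22554 and 31498 CPM in macrophages and 70.7 and 74.5 CPM in tumour cells, and that of 10 T cell markers was 3840 and 3587 CPM in T cells and 3.07 and 2.87 CPM in tumour cells. 4 Y-linked host genes together stood at 0.396 and 0.226 CPM in tumour cells against 149 and 95.2 CPM in macrophages. The sum of 4 monocyte markers was 852 and 579 CPM in tumour cells, 509 and 237 CPM in macrophages, and 953 and 883 CPM in T cells. The tumour class also carried 5 of 5 fibroblast markers, at 3643 and 2425 CPM in sum, and of its 6 own markers Krt18 was near 0 at 0.448 and 0.349 CPM while Krt8 stood at 538 and 87.5 CPM.

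GBPs and IRGs belong to the dynamin-like GTPases of cell-autonomous immunity. Interferon gamma, made mainly by T and NK cells, binds a receptor of the chains Ifngr1 and Ifngr2, and the kinases Jak1 and Jak2 then pass the signal on to the nucleus. The promoters of interferon-induced genes carry short elements known as GAS and ISRE, and Irf1, itself induced by interferon gamma, binds ISRE. In infected mouse cells the GTPases coat the vacuoles of intracellular parasites and bacteria, and GBPs also help to start inflammasome signalling. Among the IRGs, Iigp1 is an effector that loads onto vacuoles, and Irgm1, Irgm2 and Igtp are regulators that hold the effectors inactive on the cell's own membranes.

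The genes lie in clusters. In mm10, by the GENCODE vM21 annotation, Gbp5, Gbp7, Gbp3 and Gbp2 follow each other on the plus strand of chromosome 3 between 142493978 and 142638008. Gbp4 and Gbp6 lie on the minus strand of chromosome 5, Irgm1 on the minus strand and Igtp and Irgm2 on the plus strand of chromosome 11, and Iigp1 apart from these. The promoter search left out the chromosome of Iigp1. Promoters of 7 of the 10 genes were matched in RefSeq (GRCm38.p6, the build that mm10 names), each taken from 250 bases before to 50 bases after the start of the transcript. They are shown because the known interferon elements can be read in them, and 6 of the 7 genes, all but Gbp5, were at least 1.5-fold higher in RSPO3-OE tumour cells. The stretch from 170 bases to 1 base before the start is given 5′ to 3′ on the gene's strand, and capitals mark matches to GAS (TTCNNNGAA) or ISRE (GAAANNGAAA) on either strand, some of them overlapping. The stretches are, in the order printed, chr3:142620493-142620662 on the plus strand for Gbp2, chr3:142559874-142560043 on the plus strand for Gbp3, chr3:142496764-142496933 on the plus strand for Gbp5, chr3:142530166-142530335 on the plus strand for Gbp7, chr11:48871421-48871590 on the minus strand for Irgm1, chr11:58199386-58199555 on the plus strand for Igtp and chr11:58214807-58214976 on the plus strand for Irgm2.

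Gbp2: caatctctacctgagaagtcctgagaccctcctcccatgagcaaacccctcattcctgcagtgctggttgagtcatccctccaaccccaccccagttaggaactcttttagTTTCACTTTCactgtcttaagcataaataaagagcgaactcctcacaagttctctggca
Gbp3: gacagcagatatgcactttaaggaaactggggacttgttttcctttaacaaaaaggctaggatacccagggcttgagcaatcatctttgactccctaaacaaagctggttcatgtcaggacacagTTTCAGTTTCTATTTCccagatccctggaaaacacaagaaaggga
Gbp5: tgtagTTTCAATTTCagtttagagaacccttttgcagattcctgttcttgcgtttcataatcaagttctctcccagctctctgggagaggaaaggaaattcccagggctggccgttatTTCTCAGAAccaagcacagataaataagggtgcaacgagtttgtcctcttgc
Gbp7: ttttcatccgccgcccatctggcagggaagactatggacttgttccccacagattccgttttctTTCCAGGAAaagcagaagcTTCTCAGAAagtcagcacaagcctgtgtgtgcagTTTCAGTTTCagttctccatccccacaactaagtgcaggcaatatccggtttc
Irgm1: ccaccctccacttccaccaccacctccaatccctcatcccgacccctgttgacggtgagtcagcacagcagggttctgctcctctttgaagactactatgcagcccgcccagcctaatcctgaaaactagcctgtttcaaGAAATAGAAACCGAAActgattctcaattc
Igtp: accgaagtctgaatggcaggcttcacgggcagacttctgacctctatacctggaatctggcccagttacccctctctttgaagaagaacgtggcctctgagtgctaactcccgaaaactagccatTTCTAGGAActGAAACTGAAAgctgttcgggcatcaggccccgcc
Irgm2: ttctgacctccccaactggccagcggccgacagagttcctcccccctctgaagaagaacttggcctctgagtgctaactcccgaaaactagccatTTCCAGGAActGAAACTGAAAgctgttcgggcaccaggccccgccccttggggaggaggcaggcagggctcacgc

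An ISRE match stood in a promoter of each of the 7 genes, and a GAS match in those of Gbp5, Gbp7, Igtp and Irgm2. Over the 32544 promoters searched, 3.45% held an ISRE match, 8.33% a GAS match and 0.455% both. These were full-length promoters of distinct sequence, without the chromosome of Iigp1. Most matches lay close to the start. The ISRE began 59 bases before it in Gbp2, 53 in Gbp7, 45 and 39 in Gbp3, 64 in Irgm2, 34 in Igtp, 30 and 24 in Irgm1, and 165 in Gbp5. Gbp7 held a pair of GAS matches, 106 and 87 bases before the start, and Gbp5 held 1 at 52 bases and another at 245 bases, outside the stretch shown. Igtp and Irgm2 carried a GAS shortly before an ISRE, and the stretches shown share an identical run of 38 bases that lies upstream of the GAS and ends inside it. A second Gbp3 promoter in the table held neither motif. A match describes the letters and does not show that a factor was bound.

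In tumour cells, 9 of the 10 GTPase genes were at least 1.5-fold higher in RSPO3-OE than in Ctrl, and none was lower. Of all 13051 genes with at least 50 UMIs in the class over both libraries, 10.1% were at least 1.5-fold higher and 14.4% lower by that fold. The median log2 ratio of the 10 was 1.16, with a range from 0.39 to 2.08, and that of all genes tested was -0.09. Counting intervals lay wholly above 1.5-fold for the same 9 genes. Summed over the 10, the level was 1573 CPM (1566 to 1580) against 565 CPM (561 to 570).

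Gbp2, which coats the vacuoles of Toxoplasma and helps to release bacterial products to inflammasomes in mouse cells, was the most abundant of the GBPs. Its level was 449 CPM (445 to 453) against 130 CPM (128 to 132) in RSPO3-OE and Ctrl tumour cells, a log2 ratio of 1.79 (1.76 to 1.82). A Gbp2 UMI was found in 91.0% of RSPO3-OE and 63.3% of Ctrl tumour cells. Part of a share comes from depth, since the median tumour cell had 25376 UMIs in RSPO3-OE and 21437 in Ctrl. After thinning every cell to 2000 UMIs, for which 2 and 3 cells were too shallow, the shares were 44.4% and 18.8%. Gbp2 was thus higher both by level and by share of cells.

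The other GBPs of the chromosome 3 cluster differed among themselves. Gbp3 stood at 133 against 56.9 CPM, a log2 ratio of 1.22 (1.18 to 1.27). Gbp7, which has been tied to oxidase assembly and autophagy in mouse macrophages, stood at 155 against 72.0 CPM, a log2 ratio of 1.11 (1.07 to 1.15). Gbp5, which promotes assembly of the NLRP3 inflammasome in mouse macrophages, was the 1 gene of the 10 below 1.5-fold. It stood at 17.3 CPM (16.6 to 18.1) against 13.2 CPM (12.5 to 13.9), a log2 ratio of 0.39 (0.30 to 0.49). Its promoter held both motifs, as those of Gbp7, Igtp and Irgm2 did.

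On chromosome 5, Gbp4 stood at 49.8 against 28.7 CPM, a log2 ratio of 0.79 (0.73 to 0.85), and Gbp6 at 44.2 against 25 CPM, a log2 ratio of 0.82 (0.75 to 0.89). These were the lowest ratios above 1.5-fold, and both were below it under the mean of the cells' own CPM (0.54 and 0.51) and with cells thinned to 2000 UMIs (0.58 and 0.50). The Gbp6 level is uncertain: 86.9% of the 50-base stretches in the last 1000 bases of its transcripts also occur in another gene, chiefly the annotated gene Gm43302, which overlaps it on the same strand. For Gbp4 this share was 9.86%, for Igtp, shared with the overlapping Irgm2, 6.55%, and for the other 7 genes under 2%.

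Among the IRGs, Iigp1 had the highest ratio of the 10. The effector's level was 364 CPM (360 to 367) against 85.8 CPM (84.1 to 87.6), a log2 ratio of 2.08 (2.05 to 2.12) and rank 263 from the top of the 13051 genes. An Iigp1 UMI was found in 73.5% and 41.5% of tumour cells, and in 34.7% and 13.4% after thinning. The regulators were also higher, by less. Igtp stood at 192 against 77.6 CPM (log2 ratio 1.30, 1.27 to 1.34), Irgm1 at 141 against 65.3 CPM (1.11, 1.07 to 1.15) and Irgm2 at 28.4 against 10.8 CPM (1.39, 1.29 to 1.49). Iigp1 made up 23.1% of the 10 genes' UMIs in RSPO3-OE tumour cells and 15.2% in Ctrl tumour cells, and Gbp2 28.6% and 23.0%.

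**Figure D1:**
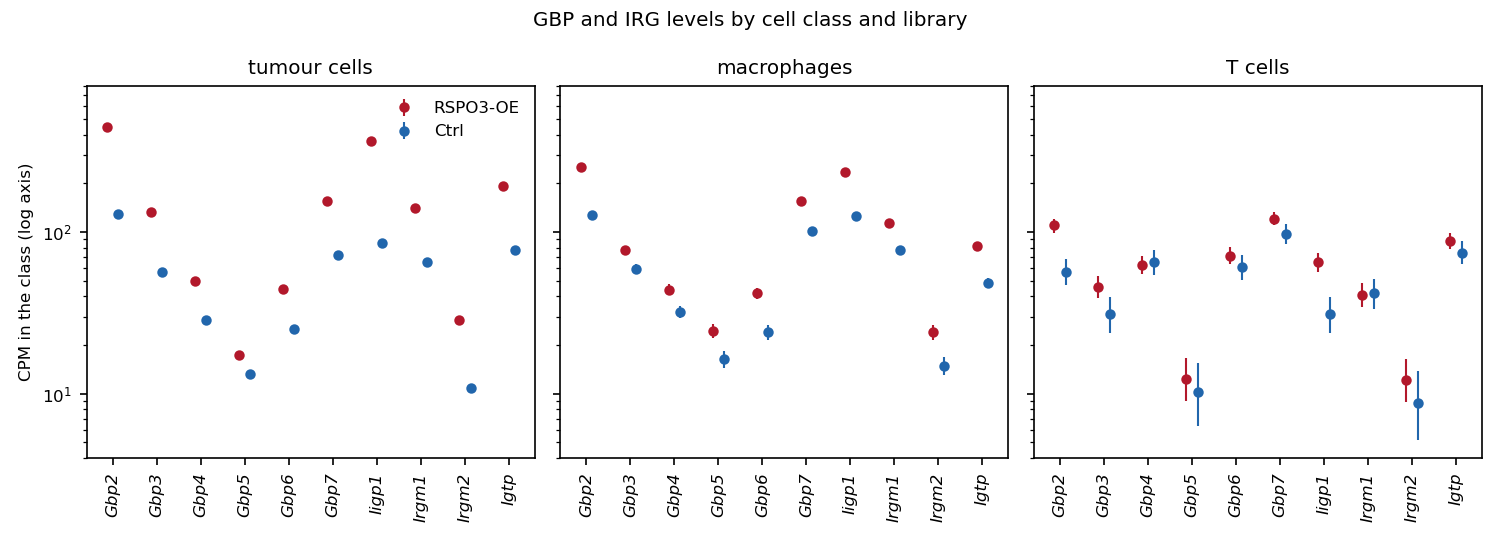
Levels of the 10 genes in CPM (log axis) in tumour cells, macrophages and T cells, with RSPO3-OE in red and Ctrl in blue; points are sums over the cells of 1 library and bars are 95% counting intervals. Gbp2 and Iigp1 stand highest in RSPO3-OE tumour cells, at 449 and 364 CPM, and Gbp5 and Irgm2 are lowest in all 3 classes.

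In macrophages, 7 of the 10 genes were at least 1.5-fold higher in RSPO3-OE, none was lower and none reached 2-fold. The share of all 10812 genes tested there that were at least 1.5-fold higher was 10.2%. The median log2 ratio of the 10 was 0.65, from 0.37 to 0.98, against 0.05 for all genes tested. Summed, the 10 stood at 1049 CPM (1033 to 1066) and 627 CPM (614 to 639). All 10 counting intervals lay above a ratio of 1, and 4, those of Gbp2, Gbp6, Iigp1 and Igtp, lay wholly above 1.5-fold.

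Gbp2 and Iigp1 had the highest macrophage ratios as well. Gbp2 stood at 253 CPM (245 to 261) against 128 CPM (123 to 134), a log2 ratio of 0.98 (0.90 to 1.06), and Iigp1 at 235 CPM (227 to 242) against 125 CPM (119 to 130), a log2 ratio of 0.91 (0.83 to 0.99). Gbp6 followed at 0.80, Igtp at 0.76 and Irgm2 at 0.69 in log2 ratio. Gbp7, at 156 CPM in RSPO3-OE, and Gbp5, at 24.5 against 16.3 CPM, were just past the threshold at 1.53-fold and 1.51-fold. Irgm1 was just under it at 1.46-fold, with 113 against 77.5 CPM. Gbp4 and Gbp3 had the lowest ratios, 0.46 (0.29 to 0.63) and 0.37 (0.25 to 0.50). Median depth in this class was 11920 UMIs per cell in RSPO3-OE and 12676 in Ctrl.

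Hmga2, the tumour cell gene, gave 15.6 CPM in RSPO3-OE macrophages and 7.01 CPM in Ctrl macrophages, against 351 and 270 CPM in tumour cells, and 7.41% and 3.91% of macrophages held an Hmga2 UMI. Without those cells, an alternative added after the data were seen, 6 of the 10 genes were at least 1.5-fold higher. The share of all genes tested that were higher was 8.55%. The median log2 ratio was 0.66 for the 10 genes and 0.03 for all genes tested.

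The median ratio was lowest in T cells, and the difference between classes was not tested. 2 of the 10 genes, Gbp2 and Iigp1, were at least 1.5-fold higher in RSPO3-OE T cells and none was lower by that fold, where 7.18% of all 7912 genes tested were higher. The median log2 ratio was 0.30 against -0.01 for all genes, and 6 of the 10 counting intervals included a ratio of 1. Gbp2 stood at 110 CPM (99.0 to 121) against 56.7 CPM (46.9 to 68.0), a log2 ratio of 0.95 (0.65 to 1.26). Iigp1 stood at 65.0 CPM (56.9 to 73.8) against 31.0 CPM (23.9 to 39.6), a log2 ratio of 1.07 (0.66 to 1.49). Gbp4, at 62.8 against 65.0 CPM, and Irgm1, at 40.9 against 41.7 CPM, were level, with log2 ratios of -0.05 (-0.36 to 0.27) and -0.03 (-0.42 to 0.37).

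CD8 T cells did not show the Gbp2 ratio of the whole class. Among T cells with Cd8a or Cd8b1 and no Cd4 UMI, 335 in RSPO3-OE and 180 in Ctrl, Gbp2 stood at 54.1 against 54.4 CPM, and the 10 genes together at 470 CPM (445 to 496) against 446 CPM (416 to 478). T cells with both or neither of the co-receptors, 50 and 23 cells, held 480 against 79.8 CPM of Gbp2 and 1377 against 741 CPM of the 10. In those cells Hmga2 stood at 117 against 74.1 CPM and the macrophage gene Lyz2 at 176 against 17.1 CPM. Over all T cells the order was the opposite, with Hmga2 at 27.9 against 56.7 CPM, Lyz2 at 73.0 against 177 CPM and the macrophage marker list at 458 against 683 CPM. The part of such RNA in the T cell ratios was not tested. With the T cells that held an Hmga2 UMI left out, 21 and 18 cells, the log2 ratios of Gbp2 and Iigp1 were 1.20 and 1.18, and the median of the 10 was 0.06 against 0.02 for all genes. Cells with Cd4 and no CD8 UMI numbered 31 and 5, too few to compare, and the 31 RSPO3-OE cells held 209 CPM of Iigp1, 227 CPM of Igtp and 22.3 CPM of Gbp2.

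**Figure D2:**
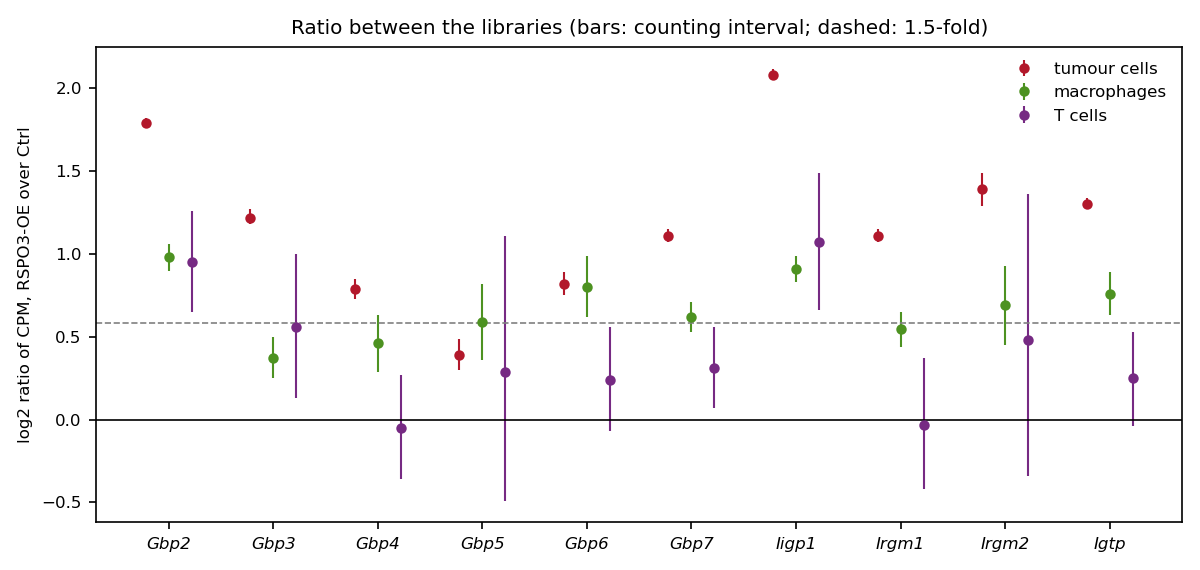
Log2 ratio of CPM, RSPO3-OE over Ctrl, for the 10 genes in tumour cells (red), macrophages (green) and T cells (purple), with 95% counting intervals of 1 library per group; the dashed line marks 1.5-fold. Tumour cells have the highest ratio for every gene but Gbp5, which is highest in macrophages at 0.59, and Gbp6 stands at 0.82 and 0.80 in tumour cells and macrophages.

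The order of the classes differed between the libraries and between genes. In Ctrl, Gbp2 was level between tumour cells and macrophages (log2 ratio 0.02, -0.05 to 0.09), and Iigp1 was lower in tumour cells (-0.54, -0.61 to -0.47). In RSPO3-OE both were higher in tumour cells, Gbp2 by 0.83 (0.78 to 0.88) and Iigp1 by 0.63 (0.58 to 0.68) in log2 ratio. Igtp was higher in tumour cells in both libraries, by 1.22 (1.14 to 1.30) and 0.68 (0.57 to 0.79). Gbp5 was lower in tumour cells than in macrophages in both, by log2 ratios of -0.50 (-0.66 to -0.34) and -0.30 (-0.50 to -0.11).

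T cells had a profile of their own. Gbp4 and Gbp6 were highest there: T cells over tumour cells gave log2 ratios of 0.34 (0.14 to 0.53) and 0.70 (0.51 to 0.88) in RSPO3-OE, and 1.18 (0.92 to 1.43) and 1.28 (1.01 to 1.54) in Ctrl. Iigp1 was lower in T cells than in both other classes, at log2 ratios of -2.49 (-2.68 to -2.30) and -1.47 (-1.85 to -1.11) against tumour cells. RNA of macrophages was also read in the other classes: C1qa stood in tumour cells at 13.2 and 11.0 CPM, which is 0.205% and 0.157% of its macrophage level, and in T cells at 2.37% and 2.35% of it.

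The rest of both families was counted from lists by the same rule. For this and each list below, the shares of all genes tested stand as the comparison. At least 1.5-fold higher were 10.1% in tumour cells, 10.2% in macrophages and 7.18% in T cells. Lower by that fold were 14.4%, 4.58% and 8.77%. Of the other GBPs, 4 were in the feature table and 3 had at least 50 UMIs in tumour cells, of which Gbp10 (1.26 against 0.612 CPM) and Gbp8 (4.83 against 2.97 CPM) were at least 1.5-fold higher and Gbp9 (18.5 against 17.7 CPM) was not. In macrophages 1 of 3 was higher and in T cells 0 of 2. Gbp2b, the neighbour of Gbp2 on chromosome 3, was a macrophage transcript. Its level in macrophages was 16.9 CPM (14.9 to 19.1) against 9.20 CPM (7.77 to 10.8), with 6 and 1 UMIs in all tumour cells. Gbp8 was also far lower in tumour cells than in macrophages, by a log2 ratio of -2.83 (-3.00 to -2.65) in RSPO3-OE, and of -3.51 (-3.72 to -3.31) among Ctrl cells.

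Of the other IRG genes, 8 had at least 50 UMIs in tumour cells and 5 were at least 1.5-fold higher, with a median log2 ratio of 1.02. The highest were Gm4951 at 31.4 against 10.4 CPM (log2 ratio 1.60) and F830016B08Rik at 14.4 against 5.17 CPM (1.48, 1.34 to 1.62). Ifi47, an effector IRG, was the most abundant at 119 against 55.6 CPM, a log2 ratio of 1.10. The lowest were Irgq, a divergent family member, at 0.09 (-0.09 to 0.27) and 9930111J21Rik1 at 0.18 (-0.04 to 0.41). In macrophages 1 of 8 was higher, Tgtp2 at 0.68 (0.34 to 1.02), and Gm4951 was level at -0.03 (-0.20 to 0.14). In T cells 0 of 2 were higher, with Ifi47 at -0.03 and 9930111J21Rik2 at -0.40. The levels of Gbp10, Tgtp1, Tgtp2, 9930111J21Rik1 and 9930111J21Rik2 are uncertain, since between 63.7% and 95.3% of the 50-base stretches at their 3′ ends occur in another gene.

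Ifng, the ligand, came almost wholly from T cells, which held 97.7% of its UMIs in RSPO3-OE and 96.4% in Ctrl. Its level per T cell UMI was 302 against 196 CPM, a log2 ratio of 0.62 (0.46 to 0.79). An Ifng UMI was found in 54.8% (49.9 to 59.7) of RSPO3-OE T cells and 41.3% (34.6 to 48.4) of Ctrl T cells, and in 28.5% and 22.9% after thinning. T cells also made up 5.95% of RSPO3-OE cells and 3.02% of Ctrl cells, and Ifng over all kept cells stood at 7.47 against 3.00 CPM.

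The receptor genes were nearly level in tumour cells, where 6 of 12 genes of the pathway list were at least 1.5-fold higher. Ifngr1 had log2 ratios of -0.01 (-0.05 to 0.04) in tumour cells, 0.04 in macrophages and 0.36 in T cells, and Ifngr2 of 0.18, 0.26 and 0.19. Irf1 stood at 319 against 122 CPM in tumour cells and 144 against 58.3 CPM in macrophages, log2 ratios of 1.38 (1.35 to 1.41) and 1.31 (1.19 to 1.42), with 0.39 in T cells. Socs1, which shuts off Jak signalling, had log2 ratios of 1.30, 1.34 and 0.48 in tumour cells, macrophages and T cells. Nlrc5, the activator of MHC class I genes, had 1.03, 0.95 and 0.56. Irf8, an interferon regulatory factor of myeloid cells, stood apart at 0.68 in tumour cells, -0.12 (-0.18 to -0.06) in macrophages and 0.38 in T cells.

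Over the same list, 5 of 12 genes were higher in macrophages and 1 of 12, Ifng itself, in T cells, with median log2 ratios of 0.48 in tumour cells, 0.51 in macrophages and 0.37 in T cells. Jak2 was among the highest in macrophages, at 1.31 (1.11 to 1.51), and level in tumour cells at 0.01. Ciita, the activator of MHC class II genes, was at 34.2 against 23.4 CPM in macrophages and under 1 CPM in tumour cells. In T cells the lowest were Jak2 at 0.12 and Socs3, another Jak inhibitor, at 0.14.

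The type I interferon pathway list had 4 of 8 genes higher and 1 lower in tumour cells, 0 of 9 higher in macrophages and 1 of 8 in T cells, with medians of 0.35, 0.19 and -0.08. Irf7, the main amplifier of type I interferon, stood at 1.12 and Usp18, an inhibitor of its receptor, at 0.89 in tumour cells, while the kinase Tyk2 was lower at -0.61 (-0.80 to -0.42) and Irf3 at -0.32. In macrophages Irf7 and Stat2 were highest at 0.51 and 0.43 and Irf3 and Ifnar2 lowest at -0.47 and -0.20. In T cells Ifnar1 and Irf7 were highest at 0.69 and 0.34 and Tyk2 and Ifnar2 lowest at -0.31 and -0.28.

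Of interferon effector genes outside the GTPase families, 9 of 18 were at least 1.5-fold higher in tumour cells, 4 of 18 in macrophages and 2 of 16, with 1 lower, in T cells. Their median log2 ratios were 0.54, 0.33 and 0.09. The shares of all genes tested that were higher were 10.1%, 10.2% and 7.18% in the same order. Cmpk2, a mitochondrial nucleotide kinase, had the highest tumour cell ratio at 2.34 (2.23 to 2.44), and Ifi205, a PYHIN protein, followed at 1.56. Oas2, a sensor of double-stranded RNA, was lowest at -0.37 (-0.50 to -0.24), next to Ifit2 at -0.16. In macrophages Ifi205 and Isg15 were highest at 0.76 and 0.72 and Bst2 and Ifit2 lowest at -0.19 and 0.05. In T cells Rsad2 and Isg15 were highest at 0.84 and 0.68, and Ifi44 and Oasl2 lowest at -1.14 and -0.46. Counts for this list and for the 10 GTPase genes are set side by side here, and the difference between them was not tested.

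Processes in which GBPs and IRGs take part were counted in the same way. The shares of all genes tested that were higher were 10.1% in tumour cells, 10.2% in macrophages and 7.18% in T cells. In a list of 12 genes, a count of 1 or 2 lies near such shares. Of inflammasome and pyroptosis genes, 5 of 10 were higher in tumour cells, 2 of 12 in macrophages and 1 of 9 in T cells, with medians of 0.64, 0.19 and 0.06. Nlrp3, the sensor that Gbp5 assists, and Il1b led in macrophages, with 174 against 53.0 CPM and 1471 against 633 CPM, log2 ratios of 1.72 and 1.22, and in tumour cells at log2 ratios of 2.08 and 1.82 but under 1 CPM for Nlrp3 and at 6.10 against 1.73 CPM for Il1b. These tumour cell levels were 0.479% and 0.373% of the macrophage level for Nlrp3 and 0.415% and 0.274% for Il1b. They lay within the range of the macrophage genes C1qa, Lyz2, Tyrobp and Cd68 (RSPO3-OE 0.205% to 0.984%, Ctrl 0.157% to 0.582%). Pycard stood in tumour cells at 5.61 against 1.79 CPM, which is 1.61% and 0.445% of its macrophage level. The part of macrophage RNA in these levels was not tested, and Nlrp3, Il1b and Pycard are all among the 5 counted. The lowest were Casp8 (-0.18) and Casp4 (0.27) in tumour cells, Ripk3 (-0.25) and Pycard (-0.21) in macrophages, and Ripk3 (-0.57) and Mlkl (-0.39) in T cells. Il1b was also highest in T cells at 2.35, with 104 against 20.4 CPM, which is 7.07% and 3.22% of its macrophage level, followed by Casp4 at 0.16. Of LC3 conjugation genes, which help IRGs and GBPs to find vacuoles, 2 of 12 were higher in tumour cells, 1 of 12 in macrophages and 0 of 12 in T cells, with medians of -0.00, 0.09 and 0.15. Sqstm1, an autophagy receptor, was highest in all 3 classes, at 0.81, 0.74 and 0.54. Map1lc3a followed at 0.63 and 0.49 in tumour cells and macrophages and Atg12 at 0.42 in T cells. The lowest were Atg16l1 (-0.56) and Gabarapl1 (-0.17) in tumour cells, Atg7 (-0.32) and Gabarapl2 (-0.05) in macrophages, and Map1lc3a (-0.31) and Atg16l1 (-0.15) in T cells.

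Within a class, single cells differed widely. The summed level of the 10 genes in a tumour cell had a median of 1019 CPM in RSPO3-OE, with 207 CPM at the 10th and 3816 CPM at the 90th percentile, and a median of 298 CPM in Ctrl, with 50.6 and 1775 CPM. Of the RSPO3-OE tumour cells, 84.3% were above the Ctrl median. In macrophages the medians were 715 and 356 CPM and 73.2% of RSPO3-OE cells were above the Ctrl median. In T cells the medians were 353 and 358 CPM and 49.5% were above it, so the T cell difference sat in the upper part of the distribution, where 14.2% of RSPO3-OE T cells passed the Ctrl 90th percentile of 1145 CPM.

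Thinned to 2000 UMIs, 23.0% of RSPO3-OE and 50.3% of Ctrl tumour cells held no UMI of any of the 10 genes. The shares were 30.0% and 45.5% of macrophages, and 45.9% and 46.3% of T cells. Unthinned, the shares without a UMI were 0.757% and 5.39% of tumour cells. The tenth of the tumour cells with the most such UMIs held 36.6% of them in RSPO3-OE and 48.9% in Ctrl.

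**Figure D3:**
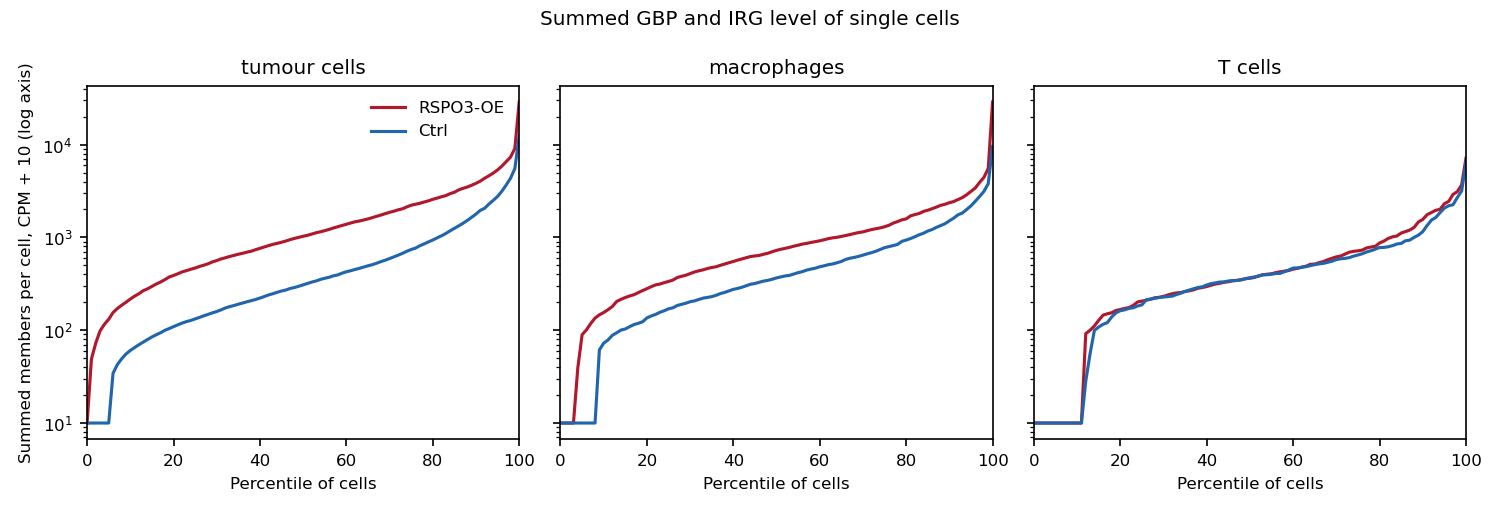
Summed level of the 10 genes per cell (CPM plus 10, log axis) against the percentile of cells, by class, with RSPO3-OE in red and Ctrl in blue. Both curves start at 0, and above the lowest percentiles RSPO3-OE is higher in tumour cells, with medians of 1019 and 298 CPM, and in macrophages; they run close together in T cells up to the upper part, with medians of 353 and 358 CPM.

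The 10 genes varied together over cells, described here without a test since cells share library, depth and normalisation. Over the 4229 RSPO3-OE tumour cells the 45 pairs had a median Pearson r of 0.47 on log-scaled counts, from 0.29 to 0.71, and over the 4323 Ctrl tumour cells 0.45. The IRGs Iigp1 and Igtp were the closest pair, at 0.71 and 0.66. Irgm1 was close to both, at 0.662 with Iigp1 and 0.664 with Igtp in RSPO3-OE. Gbp2 and Gbp3 had 0.608 and 0.539. The lowest pair was Gbp3 and Irgm2 in RSPO3-OE, at 0.292, and Gbp5 and Irgm2 in Ctrl, at 0.214. Median r was 0.31 and 0.30 in macrophages and 0.17 in T cells of either library. Thinning lowered median r in all classes, to 0.14 and 0.16 in tumour cells, in RSPO3-OE and Ctrl in that order. The thinned values were 0.11 and 0.10 in macrophages and 0.09 and 0.06 in T cells. Unthinned, the classes differed in depth, and their median r lay closer together after thinning.

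**Figure D4:**
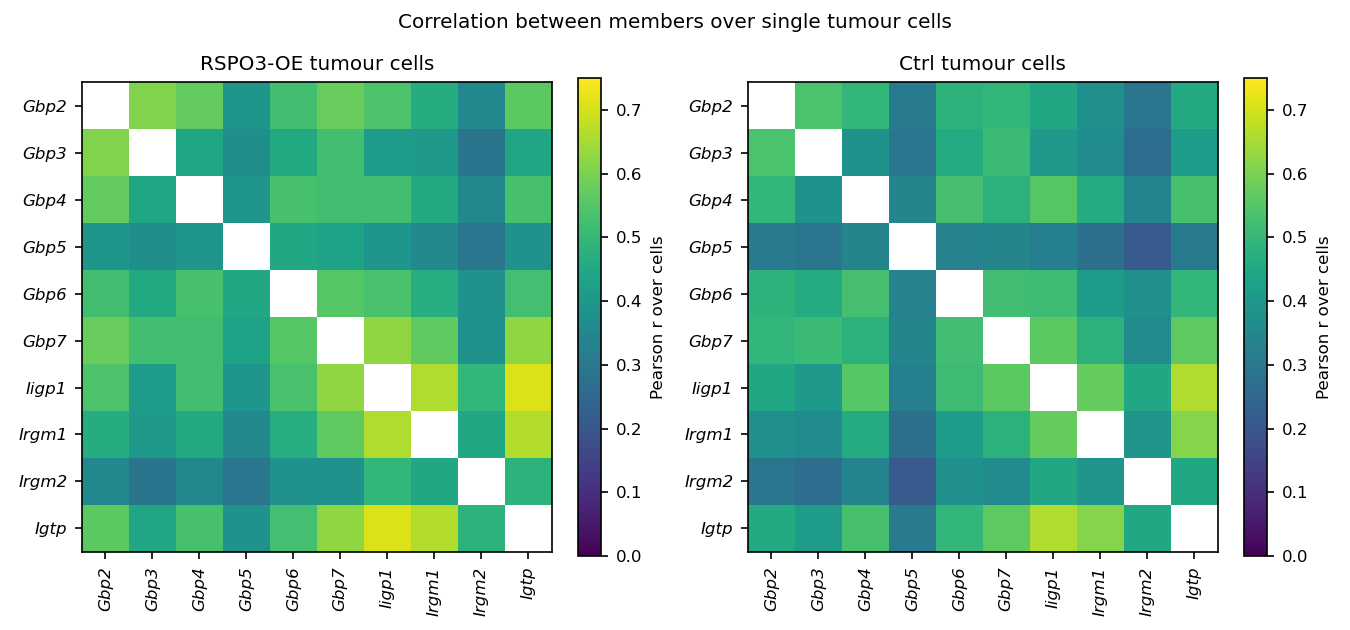
Pearson r between each pair of the 10 genes over single tumour cells of RSPO3-OE (left) and Ctrl (right), on log-scaled counts; the diagonal is blank. Iigp1, Irgm1 and Igtp form the brightest block, with Iigp1 and Igtp at 0.71 and 0.66, and Gbp5 and Irgm2 the darkest rows.

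The summed level of the 10 was also set beside all other genes read in at least 10% of a class in both libraries. In tumour cells, among 9102 genes, those most alike included the PYHIN genes Ifi203 (r of 0.49 and 0.53) and Ifi211 (0.48 and 0.47), the peptide transporter gene Tap1 (0.47 and 0.48) and Ifi204 (0.46 and 0.46). In macrophages, among 7427 genes, they included the chemokine gene Cxcl10 (0.47 and 0.46), Ifi203 (0.46 and 0.48), the nucleotide hydrolase gene Samhd1 (0.48 and 0.46) and Pnp (0.42 and 0.44), a purine phosphorylase gene. In T cells, among 6149 genes, the 5 were Ifit3 (0.46 and 0.40), Irf7 (0.41 and 0.35), Isg15 (0.42 and 0.34), Samhd1 (0.46 and 0.34) and Ly6e (0.37 and 0.32). The first value of each pair is over RSPO3-OE cells and the second over Ctrl cells.

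Rspo3 UMIs did not mark the tumour cells with the highest GTPase level. A cell without an Rspo3 UMI is not shown to lack the transgene. Among RSPO3-OE tumour cells, the 3295 without an Rspo3 UMI held 1647 CPM (1639 to 1656) of the 10 genes, the 586 with 1 to 9 UMIs 1441 CPM (1423 to 1459), and the 348 with at least 10 UMIs 1195 CPM (1175 to 1216). All 3 groups were above the 565 CPM of Ctrl tumour cells. Gbp2 followed the same order, at 468, 421 and 342 CPM, as did Iigp1, at 391, 312 and 229 CPM. Of the 10 genes only Gbp6 did not, at 46.2, 37.1 and 39.3 CPM. The cells with Rspo3 UMIs were deeper, with medians of 28014 and 28748 UMIs against 24467. Over these cells Rspo3 and the summed level had an r of -0.12.

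Tumour cells with more Mki67 held less of the 10 genes in sum in both libraries. Tumour cells without a UMI of Mki67, a marker of division, held 1804 CPM (1791 to 1817) against 713 CPM (704 to 722) in RSPO3-OE and Ctrl, and those with at least 5 held 1426 CPM (1416 to 1436) and 467 CPM (461 to 473). The RSPO3-OE library was higher in both of these groups, and cells with 1 to 4 Mki67 UMIs were not compared. Median depth differed between them, at 19399 and 16226 UMIs without Mki67 and 35204 and 32486 with it. Of the 10 genes, only Gbp7 had the opposite order, and only in RSPO3-OE, at 151 CPM without Mki67 and 163 CPM with at least 5 UMIs.

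Macrophages with the interferon gamma-induced chemokine gene Cxcl9 held the most. With at least 5 Cxcl9 UMIs they held 1493 CPM (1463 to 1524) against 1136 CPM (1100 to 1173) in RSPO3-OE and Ctrl, and without any 639 CPM (618 to 660) against 456 CPM (443 to 470). RSPO3-OE had 438 such cells of 1214 and Ctrl 219 of 1176. The RSPO3-OE value was higher in both of these groups, and macrophages with 1 to 4 Cxcl9 UMIs were not compared.

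T cells with Ifng UMIs held less of the 10 genes in sum than those without. T cells with an Ifng UMI held 451 CPM (422 to 481) against 413 CPM (374 to 456) in RSPO3-OE and Ctrl, and T cells without one 854 CPM (810 to 901) and 534 CPM (492 to 579). Iigp1 stood at 37.3 against 99.7 CPM in RSPO3-OE and 8.27 against 51.1 CPM in Ctrl, with and without Ifng in that order. In Ctrl, Gbp2 (68.2 against 46.6 CPM) and Gbp4 (72.4 against 58.4 CPM) had the opposite order. Hmga2 stood at 14.4 against 44.9 CPM and Lyz2 at 33.3 against 123 CPM in the same RSPO3-OE cells, and at 63.0 against 51.1 CPM and 14.5 against 321 CPM in the Ctrl cells, and the part of this RNA in the difference was not tested.

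**Figure D5:**
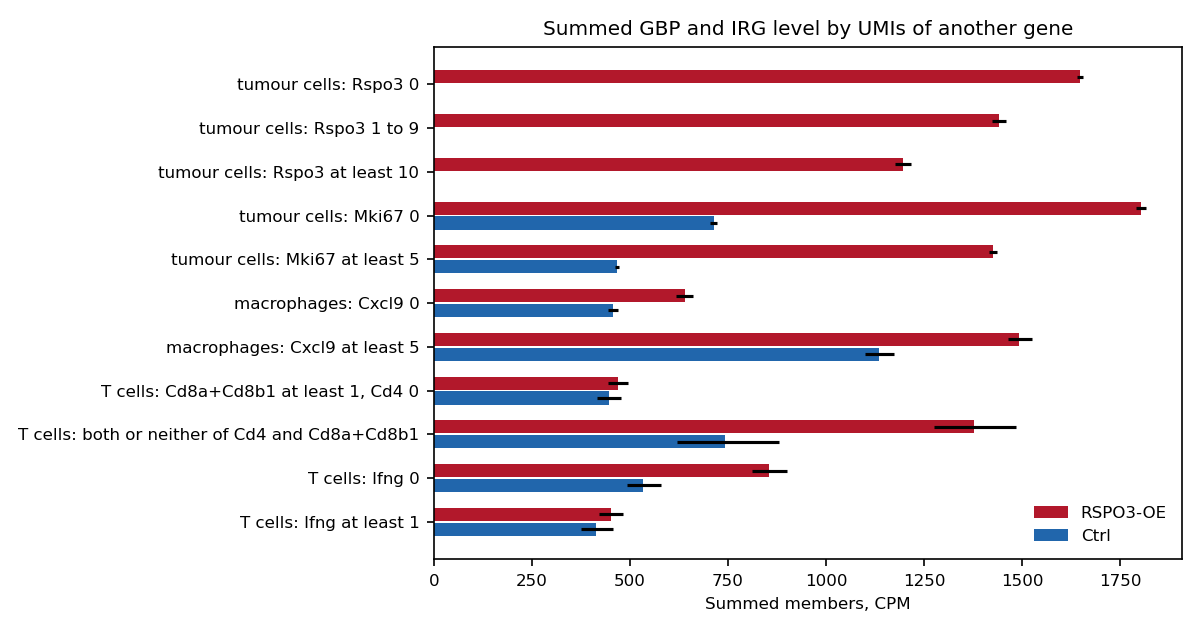
Summed CPM of the 10 genes in cells of each class split by UMIs of another gene, with RSPO3-OE in red and Ctrl in blue and 95% counting intervals; Rspo3 groups exist in RSPO3-OE. Levels are lower with more Rspo3 (1647, 1441 and 1195 CPM), lower with Mki67 in both libraries, and higher with Cxcl9 in macrophages of both.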

How the data were processed

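One RSPO3-OE and one Ctrl library were prepared with the Chromium Single Cell 3′ kit v2, per the labels' protocols. The files hold UMI counts for each gene in each barcode, unnormalized, which the authors made on the mm10 genome by Cell Ranger 3.0.1, per the submitters' processing notes; the matrix header gives software version 3.1.0.

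Cells needed at least 200 genes and at most 20% mitochondrial UMIs, which removed 150 RSPO3-OE and 311 Ctrl barcodes. Doublets called by Scrublet (scanpy 1.11.5, expected rate 0.05), 171 (2.39%) and 95 (1.36%), were removed too. Cells could meet more than 1 class rule (35 and 12) or none (1169 and 1200). CPM is a gene's summed UMIs in a class over all UMIs of that class. 3′ counts were not divided by length. Ratios have exact binomial, sums exact Poisson and shares exact Clopper-Pearson intervals at 95%, which cover counting error only. Genes with at least 50 UMIs in a class over both libraries were compared at 1.5-fold. The ratio step was checked on simulated counts.

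The 10 genes, the gene lists, the classes and the alternatives were chosen with earlier results of these data known. From each list the text names the 2 highest and 2 lowest ratios in a class; Ifng, Ifngr1, Ifngr2, Irf1, Irf8, Socs1 and Nlrc5 are named whatever their values, and per class the 5 genes most alike by the lower Pearson r of both libraries, on log(1 + 10000 × UMIs / total). For shares of cells, each cell was also thinned to 2000 UMIs. Splits by Rspo3, Mki67, Cxcl9, Cd4, Cd8 and Ifng, and other family genes named for their class pattern, were chosen after values were seen. Pycard in tumour cells was also named after its values were seen. Motifs were searched in RefSeq promoters of distinct sequence, with the chromosome of Iigp1 left out. 1 further gene of the naming rule is not reported here. Gbp11, Gm12250, Mx1 and Mx2 were not analysed here. Python 3.11.15, numpy 2.4.6, pandas 2.3.3, scipy 1.17.1 and matplotlib 3.10.9 were used.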

Additional observations from a re-analysis of the deposited data

Results flagged for a closer look

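Gbp4 and Irgm1 are set out here because their log2 ratios had opposite signs in T cells and in tumour cells. Gbp4 stood at -0.05 (-0.36 to 0.27) in T cells against 0.79 (0.73 to 0.85) in tumour cells, and Irgm1 at -0.03 (-0.42 to 0.37) against 1.11 (1.07 to 1.15). Both T cell intervals include 0, and with 1 library per group the difference was not tested.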

How the results depend on the processing

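Each count was recomputed under 12 other settings, and macrophages under 1 and T cells under 2 more that were added after the data were seen. All 110 recomputed log2 ratios in tumour cells and all 120 in macrophages stayed above 0, from 0.12 to 2.18 and from 0.28 to 1.18. Lowering the filter to at least 1 or at least 10 UMIs could not change a ratio or count of these genes in any class. All 10 had already passed 50 UMIs, so those settings are no check. Their unchanged ratios are nevertheless among the 110, the 120 and the 130 of T cells counted here. In tumour cells the count of genes at least 1.5-fold higher stayed at 7 to 9 of 10. It was 7 under a threshold of 2-fold, under the mean of the cells' own CPM and under thinning to 2000 UMIs per cell. The shares of all genes tested that were higher under these settings were 5.92%, 9.46% and 6.44%, in that order. In macrophages the count stayed at 5 to 9 except under the 2-fold threshold, where it was 0, beside 4.02% of all genes tested. It was 5 with median-of-ratios scaling, beside 9.05%, and 9 with a looser class rule, beside 11.4%. In T cells the count was 1 under the 2-fold threshold, beside 2.26% of all genes tested. With thinning it was 1 of the 6 genes that kept at least 50 UMIs, beside 10.7%. It was 4 with doublets kept, beside 7.51%, and 5 with at least 1 Cd3 UMI as the rule, beside 6.98%. With T cells that held an Hmga2 UMI left out it was 3, beside 7.71%. Over cells with Cd8a or Cd8b1 and no Cd4 UMI it was 1 of the 8 genes with at least 50 UMIs, beside 7.24%. Among those CD8 T cells the log2 ratio of Gbp2 was -0.01 in place of 0.95; the cause was not tested. Of 130 recomputed T cell ratios, 98 were above 0. No paired analysis was possible because each group has 1 library, and no library could be left out. Depth limits the T cell ratios, whose widest interval, for Irgm2, runs from -0.34 to 1.36.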

Other observations

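Cells selected by S100a8, S100a9 and Csf3r, markers of neutrophils, numbered 57 in RSPO3-OE and 5 in Ctrl, so no comparison was made. The 57 cells, with a median of 1623 UMIs, held 44 Gbp2 UMIs, or 346 CPM (251 to 464), 18 of Igtp and 17 of Irgm1. They held 0 of Iigp1 and 0 of Irgm2, with an upper 95% limit of 29.0 CPM for each. RSPO3-OE macrophages held 235 CPM of Iigp1, and their 24.0 CPM of Irgm2 lies under that limit.

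Cells selected by Ptprc with Ly6c2 and Plac8, a rule meant for monocytes, numbered 350 and 146. The 6 tumour cell markers together stood at 745 and 489 CPM in them, against 64.8 and 32.7 CPM in macrophages, so they were not described as monocytes.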
